A study of Homo sapiens with 16 samples.

Results

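The matrix proteases and their inhibitors were described as 9 listed genes, taken by symbol from the 57773 genes of the count table. They were the matrix metalloproteases MMP1, MMP2, MMP7 and MMP14, the tissue inhibitors TIMP1, TIMP2 and TIMP3, and the urokinase gene PLAU with its receptor PLAUR. All 9 had a row, and all 9 were among the 20175 genes with at least 60 counts summed over the libraries, which were the genes tested. RNA was sequenced from 4 established human lines of clear cell renal cell carcinoma (ccRCC), namely A498, CAKI-2, 769-P and 786-O, in 16 libraries. Every culture had been infected with lentivirus that expressed Cas9 and 1 guide RNA. The genotype sgCtrl (control guide) had 1 library in each line, sgKDM5C had 2 in each line (guides 4 and 5), and sgKDM5D had 2 in 786-O and 2 in CAKI-2 (guides 2 and 4). KDM5C and KDM5D encode demethylases of lysine-4 of histone H3, and the study asked what their mutation does to gene expression in these cells. Cas9 was present in all groups, controls included. Each replicate of a mutant genotype was a culture with another guide and no control was replicated. The spread behind the p-values was therefore that between guides. It was estimated for each gene over all lines and genotypes together, so that a p-value does not measure the spread within its own comparison. In these bulk libraries, fewer cells expressing a gene and less RNA of it per cell cannot be told apart.

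The libraries held 23.4M to 41.6M counts (M, 1000000). KDM5C transcripts in the sgKDM5C libraries stood at 26.2% to 57.3% of the control of their line, and KDM5D transcripts in the sgKDM5D libraries at 76.2% to 103% of theirs. A mutation introduced by Cas9 need not lower the transcript, so that the second range does not test the label. In the sgKDM5C libraries of 786-O and CAKI-2, KDM5D transcripts stood at 66.0% (786-O guide 4) to 107% (CAKI-2 guide 4) of the control. 2 libraries lay furthest from the rest of their line, 786-O sgKDM5C guide 4 and 769-P sgKDM5C guide 4, with root mean square log2 differences of 0.44 and 0.42 over 12075 genes against 0.15 to 0.35 in the others. None of the 5 renal epithelial markers found was under 1 CPM in any line (CPM, counts per M of the library total after TMM scaling), and their summed level was 1286 to 3057 CPM. Of 4 markers of clear cell carcinoma, 2 were under 1 CPM in 786-O and in 769-P and 1 in CAKI-2. Summed fibroblast markers reached at most 42.4 CPM, leukocyte markers 9.04 CPM and endothelial markers 3.36 CPM, and their part in the results was not tested.

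Matrix metalloproteases are zinc enzymes that are made as inactive proenzymes and cut collagens, gelatin, proteoglycans and cell surface proteins. TIMP proteins bind their active sites and block them, and TIMP2 has a second role, since a complex of TIMP2 with the membrane-bound MMP14 captures and activates pro-MMP2 at the cell surface. Urokinase, the product of PLAU, binds its receptor PLAUR on the surface and turns plasminogen into plasmin, which cleaves fibrin and activates several metalloproteases.

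Promoter sequences were available from RefSeq (build GRCh38.p14) for 6 of the 9 genes, as the 250 bases before the annotated start. The pair of motifs searched was TGAGTCA and TGACTCA, the binding letters of the AP-1 family, which are each other's reverse complement and so cover both strands. They were found once before MMP7, 67 bases upstream of the start, and once before PLAUR, 186 bases upstream, and in none of the windows of MMP14, TIMP1, TIMP3 and PLAU (2 windows). Of 35116 promoter windows of this length, 4.20% held one of them. The 4 windows shown, each 5′ to 3′ on the strand of the gene, are those of the genes with the motif and of MMP14 and TIMP3. Of the genes with a window and no motif, these 2 were picked for display by their level, near or at 0 in at least 1 line. MMP7, which has the motif, was low in 769-P as well (0.618 to 1.32 CPM). Capitals mark the AP-1 letters. The MMP7 window lies at chr11:102530748-102530997 (minus strand), that of PLAUR at chr19:43670170-43670419 (minus strand), that of MMP14 at chr14:22836335-22836584 (plus strand) and that of TIMP3 at chr22:32801455-32801704 (plus strand).
MMP7: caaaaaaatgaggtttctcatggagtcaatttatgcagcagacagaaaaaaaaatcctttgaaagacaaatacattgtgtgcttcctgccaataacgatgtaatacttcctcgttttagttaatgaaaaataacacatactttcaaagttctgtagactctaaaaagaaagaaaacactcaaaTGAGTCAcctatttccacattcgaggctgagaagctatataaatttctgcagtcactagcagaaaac
PLAUR: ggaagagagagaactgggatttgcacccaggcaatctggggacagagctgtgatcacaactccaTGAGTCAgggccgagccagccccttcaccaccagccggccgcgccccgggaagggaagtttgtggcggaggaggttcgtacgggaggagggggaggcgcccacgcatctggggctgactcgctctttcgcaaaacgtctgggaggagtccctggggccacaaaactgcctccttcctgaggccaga
MMP14: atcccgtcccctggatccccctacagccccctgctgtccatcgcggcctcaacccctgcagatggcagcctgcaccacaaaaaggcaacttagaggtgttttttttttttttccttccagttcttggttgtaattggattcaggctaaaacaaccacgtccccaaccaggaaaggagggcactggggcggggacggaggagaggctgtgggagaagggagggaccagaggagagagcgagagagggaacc
TIMP3: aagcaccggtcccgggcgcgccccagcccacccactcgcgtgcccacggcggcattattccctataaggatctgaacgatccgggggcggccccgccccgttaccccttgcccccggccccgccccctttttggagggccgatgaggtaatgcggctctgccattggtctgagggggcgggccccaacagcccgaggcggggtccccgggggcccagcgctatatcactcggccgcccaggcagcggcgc
The windows differed in base composition. The MMP7 window held 33.6% G or C and 3 CpG dinucleotides, MMP14 56.8% and 7, PLAUR 63.2% and 13, and TIMP3 72.4% and 26, beside a median of 58.0% and 11 over all windows. The letters are a description, and any relation to the levels was not tested. MMP1, MMP2 and TIMP2 had no window.

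The level of a gene in a line is given in CPM. Differences between lines were tested with the 3 libraries that every line had, sgCtrl and both sgKDM5C guides. Line means are therefore means ± SD of n = 3, over 1 control and 2 mutant cultures. The test was edgeR's quasi-likelihood F-test fitted to all 16 libraries, with Benjamini-Hochberg adjustment over the 20175 genes. Its p-values rest on the spread between guides and not on this SD, and they concern these lines only. All 9 genes differed between lines at an adjusted p under 0.05, as did 91.5% of all genes tested. Of the 54 tests of 1 gene in 1 pair of lines, 48 passed. The count was 7 of 9 between 786-O and CAKI-2 (65.0% of all genes), 8 between 786-O and A498 (70.0%), 8 between 786-O and 769-P (52.4%), 8 between CAKI-2 and A498 (67.3%), 8 between CAKI-2 and 769-P (65.8%) and 9 between A498 and 769-P (71.1%). Most genes differed between these lines, and the counts do not set the members apart from them. With the control libraries alone, 1 a line, 11 of the 48 calls were not made. They were 3 of TIMP3, 2 each of MMP1, MMP2 and MMP7, and 1 each of TIMP2 and PLAUR. The members differed in how far apart the lines were. The log2 difference between the highest and lowest line mean was 10.63 for MMP2, 10.08 for MMP14, 8.0 for MMP1, 7.68 for MMP7 and 6.17 for PLAU, ranges larger than those of 99.8%, 99.7%, 98.1%, 97.7% and 94.3% of the genes tested. It was 4.57 for TIMP3, 3.04 for PLAUR, 2.23 for TIMP2 and 1.82 for TIMP1, beside a median of 1.77 over all genes tested.

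**Figure D1:**
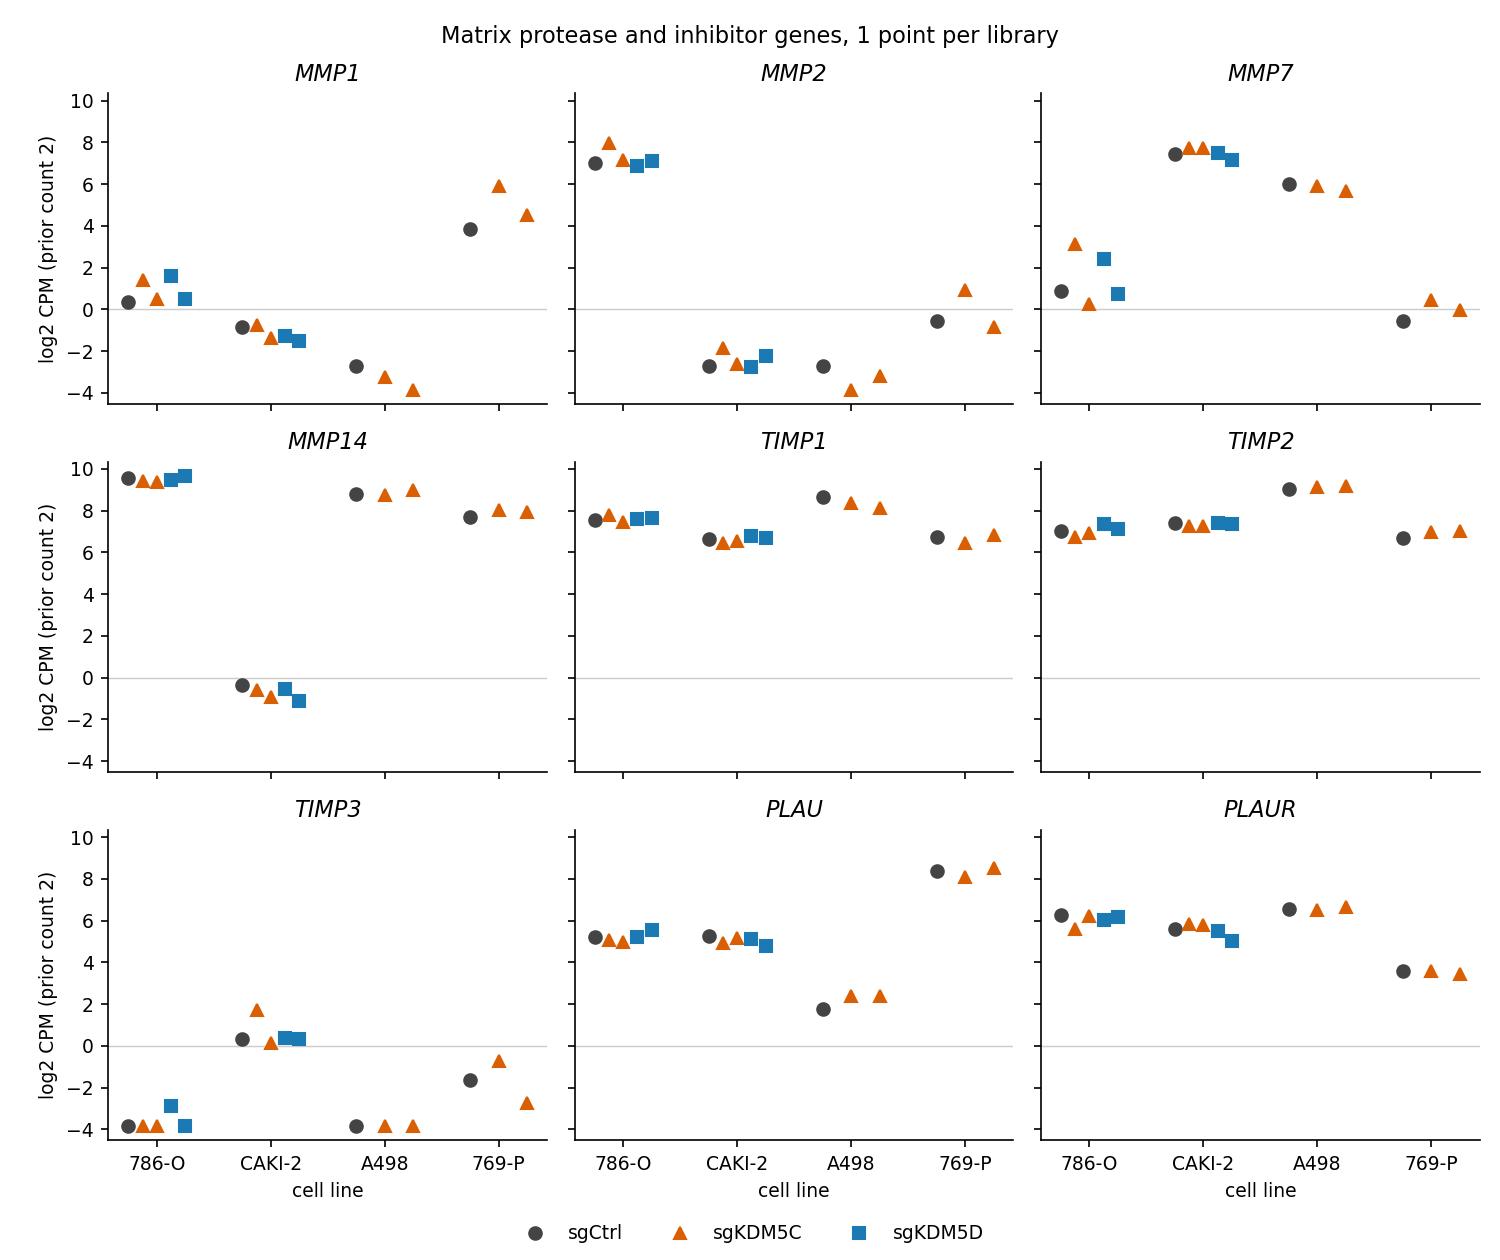
Each panel plots 1 gene, with the cell line on the x axis and log2 CPM (2 counts added to every library, scaled to its depth) on the y axis; each point is 1 library, grey circles sgCtrl, orange triangles sgKDM5C and blue squares sgKDM5D. The proteases MMP1, MMP2, MMP7 and MMP14 were each under 2 CPM in all libraries of at least 1 line, and TIMP1 and TIMP2 lay between 88.3 and 577 CPM in every library.

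MMP1, interstitial collagenase, which cleaves fibrillar collagen, lies on chromosome 11 at 102660132 to 102668891 (GRCh37, minus strand) and overlaps the pseudogene WTAPP1 on the other strand. It was highest in 769-P, with 14.2 CPM in sgCtrl, 59.5 in sgKDM5C guide 4 and 23.1 in guide 5. In 786-O it was at 1.20 CPM in sgCtrl, 2.56 and 1.33 in sgKDM5C guides 4 and 5, and 2.92 and 1.32 in sgKDM5D guides 2 and 4. In CAKI-2 it was at 0.491, 0.523, 0.322, 0.351 and 0.283 CPM in the same order. The 3 ranges did not overlap. In A498, 2, 1 and 0 counts were found. The mean was 32.3 ± 24.0 CPM in 769-P and 1.70 ± 0.751 CPM in 786-O, a log2 difference of 786-O from 769-P of -4.12 (SE 0.40, edgeR adjusted p = 7.71e-07), and -3.45 without 769-P sgKDM5C guide 4. That library, one of those that stood apart, held 1674 of the 2582 MMP1 counts of 769-P. Summed over 3 libraries a line, 769-P had 858 times the depth-scaled counts of A498, with a 95% interval of 293 to 4162 that covers counting error only. All 6 pairs of lines passed the test for MMP1.

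MMP2, gelatinase A, which degrades gelatin and basement membrane collagen, lies on chromosome 16 at 55423612 to 55540603 (plus strand) and overlaps the antisense gene MMP2-AS1 and an unnamed gene of the same strand. Nearly all of its counts were found in 786-O. Its level there was 130.0 CPM in sgCtrl, 249.8 in sgKDM5C guide 4, 143 in guide 5, 115 in sgKDM5D guide 2 and 138 in guide 4. 769-P held 0.618, 1.81 and 0.493 CPM in sgCtrl and sgKDM5C guides 4 and 5, CAKI-2 between 2 and 6 counts per library, and A498 2, 0 and 1 counts. The 786-O libraries lay far above all others, and 786-O sgKDM5C guide 4 stood above the other 4 of its line. The mean was 174 ± 65.7 CPM in 786-O and 0.975 ± 0.729 CPM in 769-P. By summed counts, 786-O exceeded CAKI-2 1475 times (95% counting interval 862 to 2771). The log2 difference from 769-P was 7.48 (SE 0.35, edgeR adjusted p = 3.97e-10), and 8.26 without 769-P sgKDM5C guide 4. CAKI-2 and A498 held 13 and 3 counts in 3 libraries each and were not told apart (adjusted p = 0.261).

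MMP7, matrilysin, a small secreted protease of epithelial cells that lacks the hemopexin domain of most family members, lies on chromosome 11 at 102391239 to 102401481 (minus strand). It was highest in CAKI-2, where sgCtrl held 175 CPM, sgKDM5C guides 4 and 5 held 211 and 216, and sgKDM5D guides 2 and 4 held 179 and 141. A498 was at 65.4 CPM in sgCtrl and 59.5 and 51.3 in sgKDM5C guides 4 and 5. These libraries were all lower than those of CAKI-2. 769-P was at 0.618, 1.32 and 0.904 CPM, and 786-O at 1.80 in sgCtrl, 8.68 and 1.11 in sgKDM5C guides 4 and 5, and 5.26 and 1.58 in sgKDM5D guides 2 and 4. The 786-O cultures fell into 3 low and 2 higher libraries, and the 2 higher ones carried guides to different genes. The log2 difference of CAKI-2 from A498 was 1.77 (SE 0.42, edgeR adjusted p = 0.00184) and that of 786-O from CAKI-2 was -5.82 (SE 0.52, adjusted p = 2.45e-07), the latter -7.14 without 786-O sgKDM5C guide 4. The call between 786-O and 769-P (log2 difference 1.93, adjusted p = 0.0197) was lost without 786-O sgKDM5C guide 4 (0.66, adjusted p = 0.247), without 769-P sgCtrl or without 769-P sgKDM5C guide 5.

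MMP14, the membrane-type metalloprotease MT1-MMP, which cuts collagen at the cell surface and activates pro-MMP2, lies on chromosome 14 at 23305769 to 23318250 (plus strand). It was abundant in 3 lines and nearly missing from CAKI-2. The 786-O libraries held 768 CPM in sgCtrl, 682 and 658 in sgKDM5C guides 4 and 5, and 700.2 and 815 in sgKDM5D guides 2 and 4. A498 held 439, 436 and 513 CPM in sgCtrl and sgKDM5C guides 4 and 5, and 769-P 208, 261 and 246. The 5 CAKI-2 libraries held 0.389 to 0.710 CPM, or 11 to 26 counts. The 4 lines did not overlap in any library, and all 6 pairs passed the test. The 786-O mean of 703 ± 57.8 CPM was above that of A498, 463 ± 43.6 CPM (log2 difference 0.60, SE 0.12, edgeR adjusted p = 0.000415). By summed counts, 786-O exceeded CAKI-2 1211 times (95% counting interval 947 to 1576).

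TIMP1, a secreted inhibitor of most metalloproteases, lies on the X chromosome at 47441807 to 47446188 (plus strand) within SYN1, a gene of the other strand. It was measured at a high level in every library. A498 held 398, 331 and 276 CPM in sgCtrl and sgKDM5C guides 4 and 5, and 786-O 187, 219, 174, 191 and 203 in sgCtrl, sgKDM5C 4 and 5 and sgKDM5D 2 and 4. CAKI-2 held 98.4, 88.6, 94.0, 109 and 103 CPM in that order, and 769-P 107, 88.3 and 113. 786-O was below A498 (log2 difference -0.78, SE 0.13, edgeR adjusted p = 8.05e-05) and above 769-P (0.91, SE 0.13, adjusted p = 3.74e-05), whereas CAKI-2 and 769-P overlapped and did not pass the test (-0.13, SE 0.13, adjusted p = 0.386).

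TIMP2, which inhibits metalloproteases and bridges MMP14 and pro-MMP2, lies on chromosome 17 at 76849059 to 76921469 (minus strand) and overlaps CEP295NL on the same strand. A498 again held the most, 522 CPM in sgCtrl and 567 and 577 in sgKDM5C guides 4 and 5. The other lines were close to each other. CAKI-2 held 170.4, 154, 156, 169 and 164 CPM in sgCtrl, sgKDM5C 4 and 5 and sgKDM5D 2 and 4, 786-O 129, 105, 121, 165 and 139 in the same order, and 769-P 104, 124 and 132. CAKI-2, the next line, differed from A498 by -1.79 (log2, SE 0.11, edgeR adjusted p = 5.56e-09). 786-O was lower than CAKI-2 (-0.44, SE 0.11, adjusted p = 0.00245), while 786-O and 769-P did not pass the test (-0.01, SE 0.11, adjusted p = 0.973).

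TIMP3, an inhibitor that stays bound to the matrix, lies on chromosome 22 at 33197691 to 33259028 (plus strand) within SYN3, a gene of the other strand. Reads of bases that a member shares with a gene of the other strand cannot be told apart, since the strand setting of the counting is not given. How reads were counted where genes of the same strand overlap, as for TIMP2, MMP2 and PLAUR, is not given either. TIMP3 had the fewest counts of the 9 genes. CAKI-2 held 43 counts in sgCtrl, 93 and 45 in sgKDM5C guides 4 and 5, and 32 and 34 in sgKDM5D guides 2 and 4, and 769-P held 6, 15 and 2. A498 held 0 counts in all 3 libraries, and 786-O held 0 in 4 libraries and 2 in sgKDM5D guide 2. For 786-O and A498, 3 counts over the 3 libraries were taken as the floor. The summed, depth-scaled TIMP3 counts of CAKI-2 were 46.4 times that floor in 786-O and 42.4 times in A498. The CAKI-2 sum was taken as exact, so these ratios cover neither its counting error nor the spread between its cultures. By summed counts, CAKI-2 exceeded 769-P 5.55 times (95% counting interval 3.59 to 8.98). The fitted log2 difference was 2.54 (edgeR adjusted p = 0.00229), and it was 3.56 without 769-P sgKDM5C guide 4 and 1.94 without CAKI-2 sgKDM5C guide 4, which held 93 of the 181 CAKI-2 counts.

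PLAU, urokinase-type plasminogen activator, lies on chromosome 10 at 75668935 to 75677254 (plus strand) and overlaps C10orf55 on the other strand. 769-P held 328 CPM in sgCtrl and 276 and 370 in sgKDM5C guides 4 and 5, and A498 held 3.27, 5.14 and 5.13. The 2 lines stood at the ends of the order. 786-O was at 37.4, 34.1, 31.8, 37.2 and 47.0 CPM in sgCtrl, sgKDM5C 4 and 5 and sgKDM5D 2 and 4, and CAKI-2 at 38.5, 30.7, 35.5, 35.0 and 27.6. Against 769-P, the log2 difference was -3.24 for 786-O (SE 0.15, edgeR adjusted p = 5.15e-10) and -6.20 for A498 (SE 0.18, adjusted p = 4.71e-12), and 786-O and CAKI-2 overlapped (-0.02, SE 0.14, adjusted p = 0.922).

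PLAUR, the glycolipid-anchored urokinase receptor, lies on chromosome 19 at 44150247 to 44174699 (minus strand) and overlaps the small RNA gene RN7SL368P and a microRNA gene on the same strand. Its order of lines was not that of PLAU. A498 held 95.2 CPM in sgCtrl and 89.5 and 100.4 in sgKDM5C guides 4 and 5, and 769-P 11.8, 11.8 and 10.98. Between them, 786-O held 76.0, 47.8, 75.3, 65.8 and 73.0 CPM in sgCtrl, sgKDM5C 4 and 5 and sgKDM5D 2 and 4, and CAKI-2 48.5, 57.4, 55.6, 45.4 and 32.6. The 786-O culture with sgKDM5C guide 4 lay within the CAKI-2 range and the other 4 lay above it. A498 was above 769-P (log2 difference 3.05, SE 0.18, edgeR adjusted p = 2.05e-09), and 786-O was below A498 (-0.53, SE 0.16, adjusted p = 0.00991). 786-O and CAKI-2 did not pass the test (0.30, SE 0.16, adjusted p = 0.123). Without 786-O sgKDM5C guide 4, 786-O and CAKI-2 passed (log2 difference 0.49, adjusted p = 0.00509) and 786-O and A498 did not pass (-0.27, adjusted p = 0.0925).

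To compare genes with each other, CPM were divided by the exonic length in kb, since a longer transcript gives more fragments. The length was the union of all annotated exons of a gene, from 1446 bases for TIMP1 to 6209 for TIMP2. It can exceed that of the transcripts made, to a degree that may differ between genes. Sums and ratios of genes depend on this choice. The sum of the 4 metalloproteases was 174 to 207 CPM per kb in the 5 libraries of 786-O, 120.0 to 133 in A498, 61.0 to 93.4 in CAKI-2 and 50.6 to 79.1 in 769-P. MMP14 made up 71.9% to 85.2% of the sum in 786-O, 77.1% to 83.4% in A498 and 71.3% to 88.9% in 769-P, but 0.107% to 0.202% in CAKI-2, where MMP7 made up 99.5% to 99.7%. The sum of the 3 inhibitors was highest in A498, at 284 to 359 CPM per kb, followed by 786-O at 140 to 168, CAKI-2 at 86.8 to 103 and 769-P at 81.1 to 99.3, and TIMP1 was 67.2% to 89.9% of it in every library. The ratio of protease to inhibitor transcripts per length was 1.13 to 1.30 in 786-O, 0.625 to 1.05 in CAKI-2, 0.559 to 0.976 in 769-P and 0.343 to 0.469 in A498, so that 786-O lay above and A498 below all libraries of the other lines. These are transcript levels, not enzyme activity, and the ratios were not tested.

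**Figure D2:**
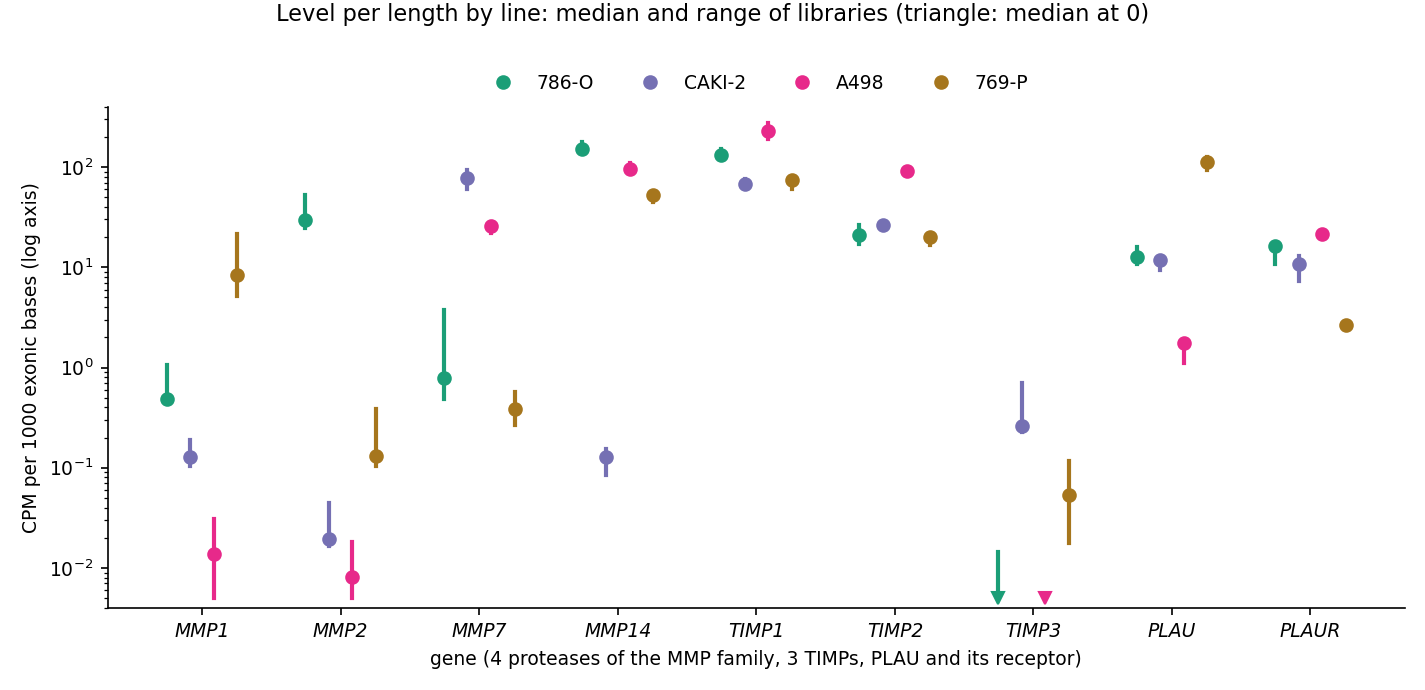
The y axis shows CPM per 1000 exonic bases on a log axis, the x axis the 9 genes, and the colours the 4 lines; a point is the median and a bar the range over the libraries of a line, values at 0 are drawn at 0.005, and a triangle marks a median at 0. TIMP1 and TIMP2 differed between lines far less than MMP1, MMP2, MMP7 and MMP14, and PLAU and PLAUR had their extremes in opposite lines.

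The genes of the MMP2 activation complex were combined differently in the 4 lines. 786-O expressed MMP14, TIMP2 and MMP2 together, with 5.71 to 8.70 times as much MMP14 as TIMP2 per length. A498 expressed MMP14 and TIMP2 at 1.03 to 1.19 times each other and 769-P at 2.504 to 2.83 times, both with little or no MMP2. CAKI-2 expressed TIMP2 with an MMP14 to TIMP2 ratio of 0.00319 to 0.00560, and 2 to 6 counts of MMP2. The urokinase pair separated the lines in another way. PLAU was 35.5 to 50.9 times PLAUR per length in 769-P, 0.0520 to 0.0868 times in A498, 0.808 to 1.28 times in CAKI-2 and 0.638 to 1.08 times in 786-O. The ratios of 769-P and A498 overlapped with no other line.

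**Figure D3:**
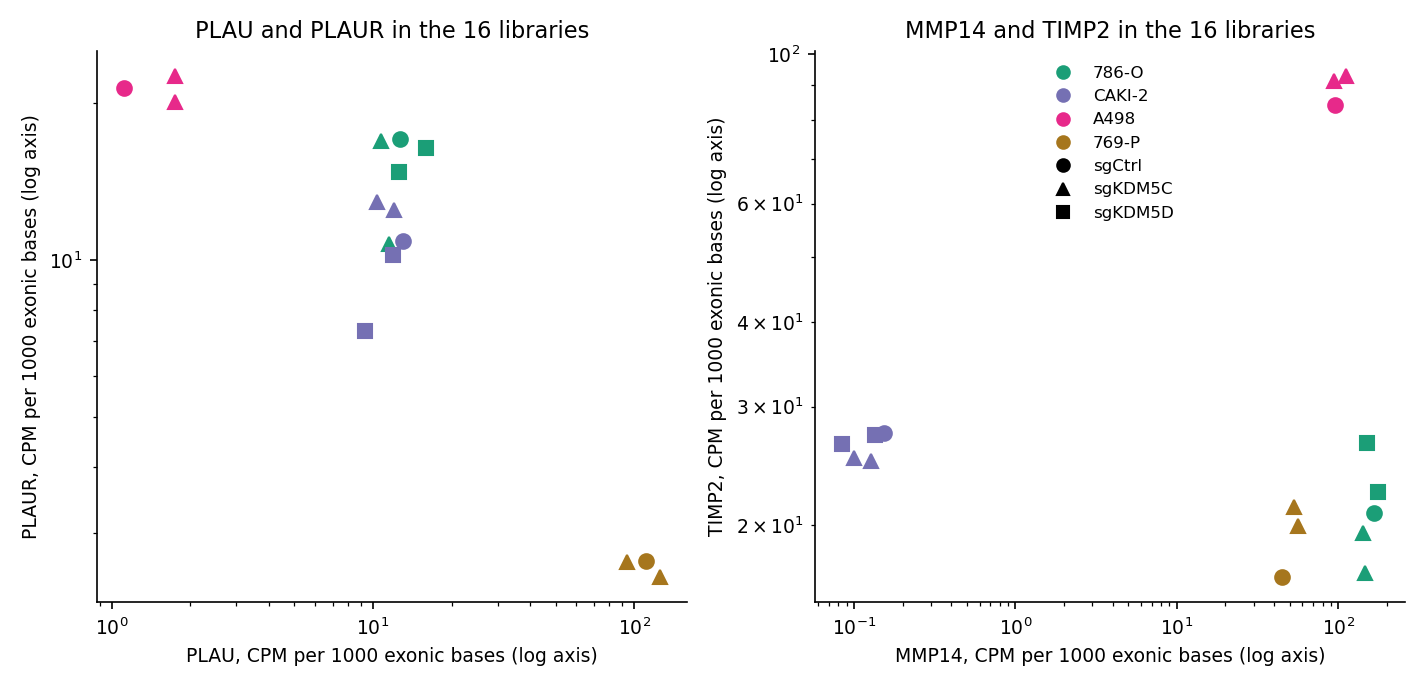
The left panel plots PLAUR against PLAU and the right panel TIMP2 against MMP14, in CPM per 1000 exonic bases on log axes, with 1 point per library, coloured by line and shaped by genotype. 769-P lay at high PLAU with low PLAUR and A498 at low PLAU with high PLAUR, and CAKI-2 lay at the low end of MMP14 with TIMP2 close to that of 786-O and 769-P.

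Related genes were followed with a list of 56 other proteases, inhibitors and cofactors of the same systems, of which 54 were found in the table and 41 were tested. Between any of the lines, 40 of the 41 differed at an adjusted p under 0.05, beside the 91.5% of all genes. RECK, a membrane-anchored metalloprotease inhibitor, was the exception (7.88 to 10.5 CPM by line, edgeR adjusted p = 0.134). By group, 9 of 9 other metalloproteases passed, 8 of 8 sheddases and aggrecanases, 8 of 8 of the plasminogen system, 6 of 6 of the cathepsin group, 6 of 6 membrane serine proteases and Kunitz inhibitors, and 3 of 4 other metalloprotease inhibitors and cofactors.

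Of these genes, 5 with a large range of line means and at least 10 CPM in 1 line extended the contrasts among the members. PLAT, the tissue-type plasminogen activator, was at 59.3 ± 1.38 CPM in CAKI-2, 20.8 ± 2.83 in A498, 1.11 ± 0.360 in 769-P and 0.497 ± 0.369 in 786-O. TFPI2, a Kunitz inhibitor of plasmin, was at 343 ± 38.8 CPM in A498, 206 ± 71.8 in 786-O, 63.0 ± 4.75 in CAKI-2 and 1.29 ± 0.390 in 769-P. The inhibitors of membrane serine proteases SPINT1 and SPINT2 were highest in CAKI-2, at 69.8 ± 3.08 and 607 ± 46.7 CPM. SPINT1 was lowest in 769-P (0.118 ± 0.124 CPM) and SPINT2 in A498 (4.45 ± 0.265 CPM). MMP13, another collagenase, was measured in 786-O at 10.4 ± 5.68 CPM and at 0.204 CPM or less in the other lines.

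**Figure D4:**
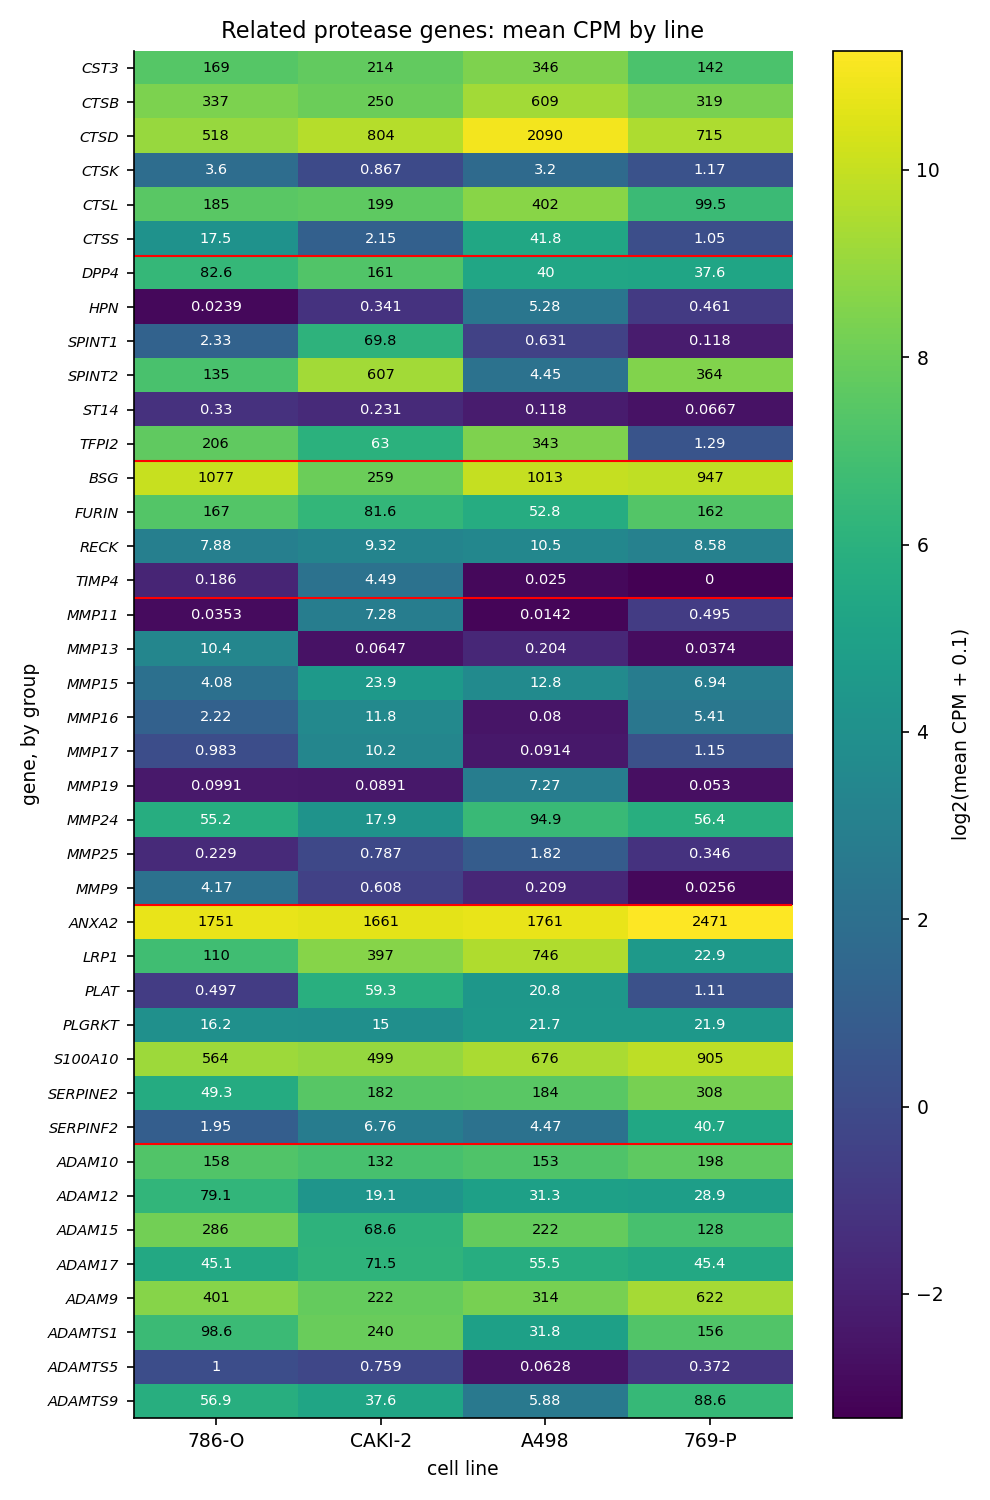
Rows are 40 of the 41 related genes that were tested, in 6 groups divided by red lines, and columns the 4 lines; the number in a cell is the mean CPM of 3 libraries and the colour log2 of that mean plus 0.1. SPINT1 ran from 0.118 CPM in 769-P to 69.8 CPM in CAKI-2, while ADAM10, ADAM17, ANXA2 and RECK differed little between columns.

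In the comparisons of sgKDM5C and sgKDM5D cultures, none of the 9 genes passed at an adjusted p under 0.05. In the filtered edgeR fit of all 16 libraries that count was 0 in each of the 10 comparisons, as it was by DESeq2. In that edgeR fit none of the 41 related genes passed. The comparisons called few genes of any kind. In each, the member with the smallest p is named, and the one with the largest difference among those with a mean of at least 20 counts. In each line, sgKDM5C was compared with the single control. In 786-O, 0.00991% of all genes were called, in 769-P 0.00496%, in A498 0.00496% and in CAKI-2 0%. At an unadjusted p under 0.05, 0 of the 9 members passed in 786-O (2.92% of all genes), 1 in 769-P (3.32%), 1 in A498 (5.55%) and 0 in CAKI-2 (1.94%). By DESeq2 the same numbers of members did so.

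The 1 member that passed in 769-P was MMP1, with both sgKDM5C cultures above the control (59.5 and 23.1 against 14.2 CPM). The log2 difference was 1.54 (SE 0.53, 95% interval 0.39 to 2.68, edgeR unadjusted p = 0.0123, adjusted p = 1). It was 0.72 without 769-P sgKDM5C guide 4, one of the 2 libraries that stood apart, and 2.07 without guide 5. The call depended on the fit, since the adjusted p was 0.0246 with the 769-P libraries fitted alone and 0.00559 with every gene of at least 1 count tested. The member that passed in A498 was PLAU, at 5.14 and 5.13 against 3.27 CPM, a log2 difference of 0.65 (SE 0.27, 95% interval 0.06 to 1.23, edgeR unadjusted p = 0.0323, adjusted p = 0.880). The 2 guides differed by a factor of 1.001 there, and A498 was the line with the least PLAU.

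In 786-O, MMP7 had the smallest p and the largest difference from the control, a log2 change of 1.45 (SE 0.85, 95% interval -0.37 to 3.27, edgeR adjusted p = 1), and it rested on 1 culture. sgKDM5C guide 4 held 8.68 CPM and guide 5 held 1.11, on either side of the control at 1.80, and without guide 4 the difference was -0.69. With every gene of at least 1 count tested, the adjusted p of MMP7 was 0.000389. In CAKI-2, MMP14 had the smallest p, with 17 and 20 counts in the mutant cultures and 26 in the control (log2 difference -0.46, SE 0.34, adjusted p = 1). TIMP3 had the largest difference in CAKI-2, 0.83 (SE 0.73, adjusted p = 1), from 93 counts with guide 4 and 45 with guide 5 beside 43 in the control, and it was -0.16 without guide 4.

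Averaged over the 4 lines, 0 of the 9 members passed and 0.00991% of all genes, and at an unadjusted p under 0.05 0 of 9 by either tool, beside 5.18% of all genes. MMP7 had the smallest p and the largest mean effect of those given, 0.59 (SE 0.43, 95% interval -0.34 to 1.51, edgeR adjusted p = 0.901), which was 0.05 without 786-O sgKDM5C guide 4. Of the 8 sgKDM5C cultures, 5 held more MMP7 than the control of their line and 3 held less. For the members with counts in every line the interval of the mean effect was narrower. It was -0.31 to 0.18 for MMP14, -0.34 to 0.08 for TIMP1, -0.15 to 0.20 for TIMP2, -0.19 to 0.30 for PLAU and -0.30 to 0.23 for PLAUR, all on the log2 scale, with outermost bounds of 0.793 and 1.23 times the control. No mean effect is given for MMP1, MMP2 and TIMP3, which held 3 counts or fewer in total in A498. The test of whether the sgKDM5C effect differed between lines called 0 of the 9 members and 0% of all genes (at an unadjusted p under 0.05, 0 of 9 by either tool and 2.29%). The smallest p among members was that of PLAU (edgeR unadjusted p = 0.104).

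The sgKDM5D cultures existed in 786-O and CAKI-2 only. Against the control, 0 of the 9 members passed in 786-O, where 0.0149% of all genes did, and 0 in CAKI-2, where 0% did. At an unadjusted p under 0.05 no member passed by either tool, beside 1.82% and 0.773% of all genes. In 786-O, TIMP2 had the smallest p (165 and 139 against 129 CPM, log2 difference 0.23, SE 0.16, edgeR adjusted p = 1). MMP7 had the largest difference there, 0.94 (SE 0.86, adjusted p = 1), which was -0.19 without guide 2. In CAKI-2, PLAU had the smallest p (35.0 and 27.6 against 38.5 CPM, log2 difference -0.30, SE 0.21, adjusted p = 1), and PLAUR the largest difference (45.4 and 32.6 against 48.5 CPM, -0.31, SE 0.24, adjusted p = 1).

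The 2 mutant genotypes were also set against each other, with 2 cultures on each side and the control left out. In 786-O 0 of the 9 members passed, beside 0.0644% of all genes, and 2 at an unadjusted p under 0.05 by either tool, beside 4.78%. TIMP2 was lower in both sgKDM5C cultures (105 and 121 CPM) than in both sgKDM5D cultures (165 and 139 CPM), with the control at 129 CPM between them. Its log2 difference was -0.42 (SE 0.13, 95% interval -0.70 to -0.14, edgeR unadjusted p = 0.00620, adjusted p = 0.594). MMP2 was higher in both sgKDM5C cultures (249.8 and 143 CPM) than in both sgKDM5D cultures (115 and 138 CPM), a log2 difference of 0.63 (SE 0.29, edgeR unadjusted p = 0.0471, adjusted p = 1) that was 0.19 without sgKDM5C guide 4. In CAKI-2 0 of the 9 passed and 0% of all genes, and 1 at an unadjusted p under 0.05 by either tool, beside 3.38%. This was PLAUR, at 57.4 and 55.6 CPM in the sgKDM5C cultures and 45.4 and 32.6 in the sgKDM5D cultures, a log2 difference of 0.53 (SE 0.20, 95% interval 0.10 to 0.97, edgeR unadjusted p = 0.0185, adjusted p = 1). TIMP3 had the largest difference, 0.77 (SE 0.59, adjusted p = 1), which was -0.22 without sgKDM5C guide 4.

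The median log2 difference of the 9 members is set beside that of all genes. For sgKDM5C against the control it was 0.30 in 769-P (all genes 0.02), -0.0040 in A498 (0.02), -0.11 in CAKI-2 (0.00) and 0.00 in 786-O (0.00), the last being the value of TIMP3, which had 0 counts there and so no measured difference. For sgKDM5D against the control it was 0.17 in 786-O and -0.13 in CAKI-2, with 0.00 over all genes in both. For sgKDM5C against sgKDM5D it was -0.17 in 786-O and 0.32 in CAKI-2, again with 0.00 over all genes. The CAKI-2 median was the value of MMP2, which had 2 to 6 counts a library there. Among the related genes, ADAM9 was called by DESeq2 and not by edgeR fitted to all 16 libraries. With the A498 libraries fitted alone, edgeR called it too (log2 difference 0.74). ADAM9, a membrane sheddase, was at 309 and 419 CPM in the sgKDM5C cultures of A498 and 214 CPM in the control (log2 difference 0.76, edgeR adjusted p = 0.686, DESeq2 adjusted p = 0.0360). With every gene of at least 1 count tested, edgeR calls included ADAM12 for sgKDM5C in 769-P (log2 difference 1.22, adjusted p = 0.00124). That fit also called ADAM12 in the mean over lines (0.55) and in CAKI-2 against sgKDM5D (0.85). It called SERPINF2 (1.31) and ADAMTS5 (-1.96) for sgKDM5C against sgKDM5D in 786-O.

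**Figure D5:**
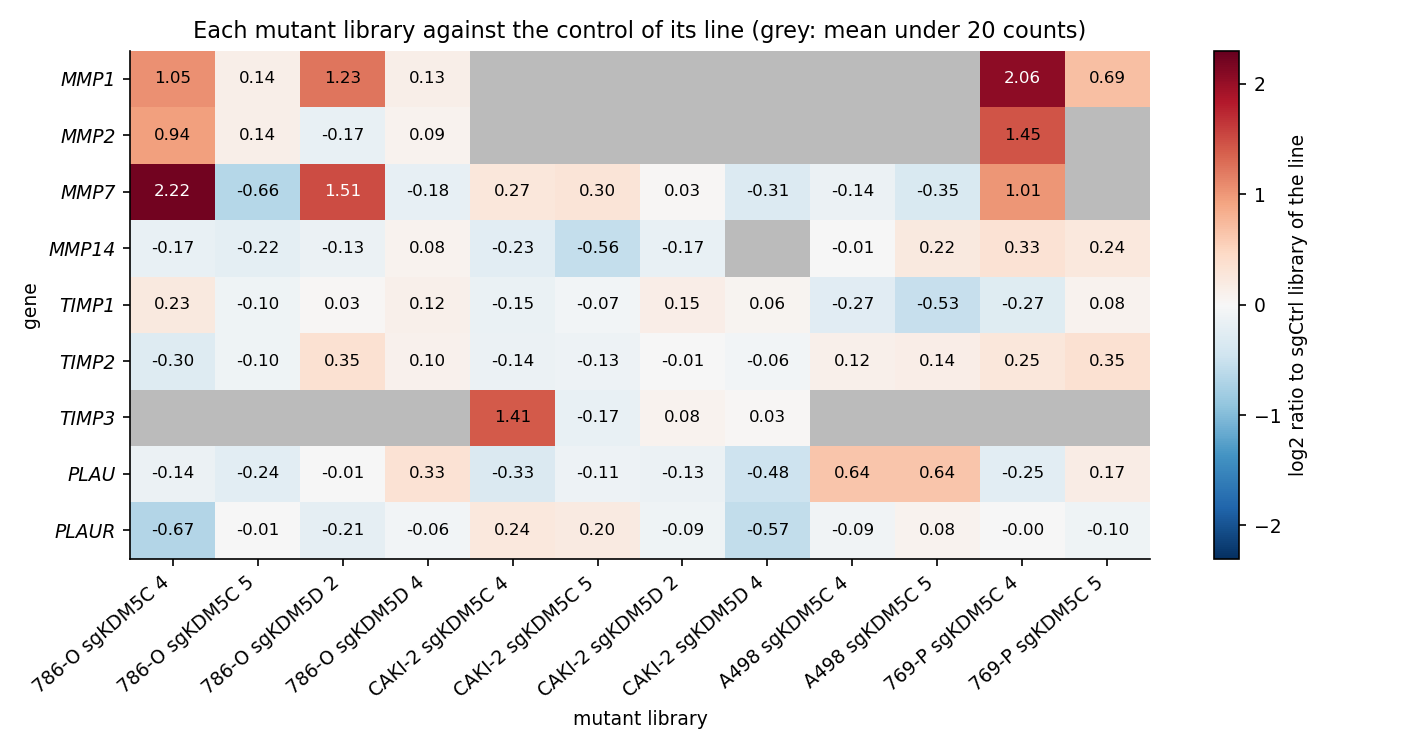
Rows are the 9 genes and columns the 12 mutant libraries; colour and number give the log2 ratio of a library to the sgCtrl library of its line (red higher, blue lower), and grey cells had a mean under 20 counts in the pair of libraries. The largest ratios were those of MMP7 in 786-O sgKDM5C 4 (2.22) and MMP1 in 769-P sgKDM5C 4 (2.06). In the cells that are not grey, MMP14, TIMP1, TIMP2, PLAU and PLAUR stayed between -0.67 and 0.64.

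The largest gaps between guides of a genotype, at a mean of at least 20 counts, were in MMP7, MMP1, MMP2 and TIMP3. The 2 sgKDM5C guides differed 7.23-fold in MMP7 in 786-O, more than 99.8% of the genes measured at that level, beside a median gap of 1.21-fold. The sgKDM5D guides of 786-O differed 3.19-fold in MMP7 (more than 99.4% of genes) and 2.12-fold in MMP1 (98.1%). In 769-P the sgKDM5C guides differed 2.57-fold in MMP1 (99.0%) and 3.22-fold in MMP2 (99.5%), and in CAKI-2 2.94-fold in TIMP3 (99.7%). TIMP2, in contrast, differed 1.01- to 1.18-fold over the 6 groups with 2 guides and TIMP1 1.06- to 1.28-fold. MMP1, MMP2, MMP7 and TIMP3 were each higher with guide 4 than with guide 5 in the groups named for sgKDM5C, and of those groups 786-O and 769-P hold the 2 libraries that stood apart. Their part in these gaps was not tested.

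Over the 16 libraries, the gene with the pattern most like each member (highest Pearson r of log2 CPM, among genes averaging 100 counts or more) was SPCS2 for MMP1 (r = 0.987), DROSHA for MMP2 (0.988), PPM1N for MMP7 (0.992), BCAT1 for MMP14 (0.997), FXYD5 for TIMP1 (0.983), EYA2 for TIMP2 (0.984), GRAMD2B for TIMP3 (0.974), CTR9 for PLAU (0.988) and MINAR1 for PLAUR (0.984). These correlations describe the 4 lines, whose libraries cluster, and not 16 independent samples. With the line means removed they were LIN7C for MMP1 (0.959), TUG1 for MMP2 (0.935), TTC28 for MMP7 (0.966), SPTY2D1 for MMP14 (0.857), FAM234A for TIMP1 (0.927), EMP1 for TIMP2 (0.939), GK5 for TIMP3 (0.921), ENSG00000198477 (with no symbol) for PLAU (0.849) and SPHK1 for PLAUR (0.897). None of the genes named over all libraries was the one named within lines, and libraries of a line come from the same cells. Each gene named had the highest r of all genes compared, so a high r can follow from the choice alone, and none was tested. In A498, TIMP3 held 0 counts and MMP1 and MMP2 at most 2 a library, where the added counts largely set the log2 CPM.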

How the data were processed

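Members and lists were chosen with earlier results of these data known. RNA (NucleoSpin RNA) was made into TruSeq Stranded libraries and sequenced paired-end on a NovaSeq. The authors deposited raw read counts per Ensembl gene, 1 column a library. The submitters' processing notes name Trimmomatic 0.38, STAR 2.5.2b and GRCh37. The counting tool, annotation release and strand setting are not given in the sources used here. The gene column of the table has no name, so that its library names were read 1 place to the right. Symbols, exonic lengths and coordinates came from GENCODE annotation on GRCh37 (55538 of 57773 genes had a symbol), and promoters from RefSeq.

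From the counts, genes with a sum of at least 60 over 16 libraries were kept (20175), scaled by TMM and fitted with edgeR 4.0.16 (R 4.3.3) as 10 means of line and genotype, tested by the quasi-likelihood F-test with Benjamini-Hochberg adjustment at 0.05. The groups followed the labels. The mean sgKDM5C effect weighted the 4 lines equally. DESeq2 1.42.0, other scaling and filters, a fit of each line alone, an additive fit, a replicate block and leaving out each library were alternatives. The SE given is the size of the log2 difference divided by the square root of its F statistic. Intervals of 95% used this SE with the fit's 13.9 degrees of freedom. At few counts this SE can fail, as for MMP1 in the mean over lines (0.09, beside 0.53 in 769-P). Log2 CPM in plots and correlations added 2 counts. Scripts were tested on simulated data. The 2 libraries of each mutant group were compared with each other, and none of these pairs was a duplicate. Other pairs were not compared. Depth was 23.4M to 41.6M counts, and counting intervals do not cover variation between cultures. In each genotype comparison, the text names the member with the smallest p, every member with an unadjusted p under 0.05, and the member with the largest difference at a mean of at least 20 counts. Of the related genes, it names those among the 6 with the widest range of line means that reached 10 CPM, except for 1 result that is not reported here. RECK, ADAM9, ADAM12, SERPINF2 and ADAMTS5 were named after their values were seen.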

Additional observations from a re-analysis of the deposited data

How the results depend on the processing

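Between lines, 48 of 54 member tests passed, and 37 (control libraries only) to 49 (additive fit of line and genotype) did so under the alternatives. The differences that changed sign were small or rested on few counts. PLAU between 786-O and CAKI-2 became 0.0057 without the filter and 0.16 in the additive fit, and ran from -0.13 to 0.038 with a library left out. TIMP2 between 786-O and 769-P became 0.0031 with RLE scaling or DESeq2, 0.015 with filterByExpr, 0.012 without the filter, 0.047 in the additive fit and 0.32 with controls only, and ran from -0.12 to 0.10 with a library left out. MMP2 between CAKI-2 and A498 became -0.052 with controls only. Of genotype effects, those of MMP7 in 786-O (-0.69 to 2.26 for sgKDM5C and -0.19 to 1.52 for sgKDM5D with a library left out) and of TIMP3 for sgKDM5C in CAKI-2 (-0.16 to 1.46 against the control, -0.22 to 1.40 against sgKDM5D) changed sign without sgKDM5C guide 4 or, for sgKDM5D, without guide 2. The count of members called rose from 0 to 1 without the filter for sgKDM5C in 786-O (MMP7), in 769-P (MMP1), in the mean over lines (MMP7) and in the difference between lines (MMP7, adjusted p = 0.0108), and to 1 for 769-P fitted alone (MMP1). The cause was not tested. It was 0 in the other alternatives run.

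A guide number stood for the same guide in each line, but the main fit did not pair libraries by it. Differences between the 2 guides of a genotype correlated between lines at -0.22 to 0.29 over 12075 genes. A replicate block for guide number changed no call of a member (MMP7 in 786-O 1.27, MMP1 in 769-P 1.39).

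Counts over all genes depended on the fit. For sgKDM5C against the control, 2 genes were called in 786-O (0 to 205 under the alternatives), 0 in CAKI-2 (0 to 15), 1 in A498 (0 to 348), 1 in 769-P (0 to 70), and 2 in the mean (0 to 113). The counts were 0 for the difference between lines (0 to 106), 3 and 0 for sgKDM5D in 786-O and CAKI-2 (0 to 46 and 0 to 3), and 13 and 0 for sgKDM5C against sgKDM5D (0 to 308 and 0 to 109). Between 786-O and 769-P, 10576 genes were called, and 6028 with controls only. With 1 control a line and 2 guides a genotype, and few counts for MMP1, MMP2, MMP14 and TIMP3 in single lines, the precision of the genotype effects was low, as their intervals show.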
